A study of Mus musculus with 12 samples.

Results

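Toll-like receptors recognise microbial molecules and start innate immune signalling. The genes described here were 8 of these receptors (Tlr1 to Tlr7 and Tlr9), the co-receptor Cd14 and the adaptor Myd88. Members were the probe sets of the array annotated to exactly 1 of these 10 symbols, which gave 14 of 22690 probe sets. At the level of genes they were 10 of 12393 measured genes. By place in the cell they comprised 6 surface genes (Tlr1, Tlr2, Tlr4, Tlr5, Tlr6 and Cd14), 3 endosomal receptors (Tlr3, Tlr7 and Tlr9) and 1 cytosolic adaptor.

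RNA from 4 groups of 3 mouse samples was hybridised to Affymetrix arrays. The groups were RAW264.7 cells, a mouse macrophage-like cell line, cultured overnight with estradiol at 1 ug/mL (Estradiol), RAW264.7 cells without it (Unstimulated), bronchoalveolar lavage macrophages of pregnant mice (Pregnant), and the same lavage cells of control mice (Control). The labels attach the estradiol treatment to all samples, but the design text limits it to the cell line, states that its untreated cultures received vehicle, and has lavage cells processed directly. The stage of pregnancy and the strain and age of the mice are not given in the sources used here. Nor is the sex of the control mice, so Pregnant and Control may also differ in sex. Any sorting of the lavage cells, and whether replicates were separate cultures or animals, are not given either. The p-values therefore reflect only how far these arrays varied, possibly for technical reasons, and the cell-line results come from 1 line.

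Surface Toll-like receptors bind components of microbial cell walls and flagella, and endosomal ones bind nucleic acids. TLR2 works in pairs with TLR1 or TLR6 on bacterial lipoproteins. CD14 hands lipopolysaccharide to TLR4, whose partner is MD-2, the product of Ly96. Most of these receptors signal through MyD88 to NF-kB, whereas TLR3 uses the adaptor TRIF, and endosomal receptors depend on the chaperone UNC93B1. Alveolar macrophages and macrophage lines use this system to sense inhaled or added microbial products.

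Promoter sequences, from 250 bases before to 50 after a transcript start, were held for 7 of the 10 genes in RefSeq's annotation of GRCm38.p6. Those of Tlr2, Tlr1 and Tlr6 are shown because their products work in pairs. Capitals mark matches to 5 motifs searched on both strands, namely the GAS core TTCNNNGAA, the PU.1 core GAGGAA and, by name, the ISRE core, the estrogen response element and the NF-kB consensus. The Tlr2 window lies at chr3:83841559-83841858 (minus strand), the Tlr1 window at chr5:64932650-64932949 (minus strand) and the Tlr6 window at chr5:64959117-64959416 (minus strand).
Tlr2: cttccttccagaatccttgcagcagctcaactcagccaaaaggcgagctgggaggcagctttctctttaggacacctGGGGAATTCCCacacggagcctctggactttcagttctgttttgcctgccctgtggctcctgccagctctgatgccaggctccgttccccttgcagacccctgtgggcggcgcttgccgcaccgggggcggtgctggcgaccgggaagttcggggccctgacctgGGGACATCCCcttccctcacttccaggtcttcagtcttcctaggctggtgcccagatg
Tlr1: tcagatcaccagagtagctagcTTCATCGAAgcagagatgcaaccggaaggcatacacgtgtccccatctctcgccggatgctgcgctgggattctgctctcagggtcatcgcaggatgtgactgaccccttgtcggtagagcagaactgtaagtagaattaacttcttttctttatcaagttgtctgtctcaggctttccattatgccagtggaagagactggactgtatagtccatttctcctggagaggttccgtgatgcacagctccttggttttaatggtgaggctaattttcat
Tlr6: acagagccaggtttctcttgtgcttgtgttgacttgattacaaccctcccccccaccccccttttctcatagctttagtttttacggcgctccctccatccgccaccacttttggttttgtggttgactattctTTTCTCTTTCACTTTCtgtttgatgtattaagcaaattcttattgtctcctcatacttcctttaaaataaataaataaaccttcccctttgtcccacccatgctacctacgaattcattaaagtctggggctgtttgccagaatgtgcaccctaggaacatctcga

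The Tlr2 window held 3 matches to the NF-kB consensus, of which 2 overlapped at bases 78 to 88 and 1 spanned bases 243 to 252, across the transcript start. The Tlr6 window held 2 overlapping ISRE cores at bases 135 to 150, and the Tlr1 window 1 GAS core at bases 23 to 31. Tlr1 and Tlr6 each had 1 further window, with a PU.1 core in that of Tlr1 and 2 GAS cores in that of Tlr6. The NF-kB consensus occurs in 8.46% of the 32851 promoter windows of this length, the ISRE core in 3.44%, the GAS core in 8.3%, the PU.1 core in 28.3% and the estrogen response element in 0.07%. None of the 9 windows of the 7 genes held the estrogen response element letters. These matches describe the letters only and are not evidence of binding.

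Array medians ran from 369 to 393 on the linear scale, and no pair of arrays held identical values. Macrophage markers were above the 40th percentile of the array for 6 of 6 genes on all lavage arrays and for 5 of 6 on all cell-line arrays. Alveolar macrophage markers were above it for 8 of 8 measured genes on all lavage arrays and for 3 of 8 on all RAW264.7 arrays. Estradiol replicate 2 stood apart, with a 3' to 5' difference in actin signal of 0.74 (log2) against 0.39 to 0.48 on the other cell-line arrays. This difference was 0.39 for Pregnant replicate 2, against 0.26 to 0.35 on the other lavage arrays. The lavage arrays also carried epithelial markers (6 of 7 above the 40th percentile on all 6 arrays), summing to 15702 to 26622 in Pregnant and 13805 to 23362 in Control. Neutrophil markers summed to 6779 to 10542 in Pregnant and 7358 to 20167 in Control, with 4 of 8 measured genes above the 40th percentile on all arrays of each group. Monocyte markers summed lower in Pregnant (1992 to 2541) than in Control (3413 to 4486), without overlap. Of the 3 measured monocyte genes 0 had a positive change and 0 passed, and 2 had an unadjusted limma p under 0.05. In the cell line the neutrophil list summed to 1545 to 1554 in Estradiol (3 of 8 above the 40th percentile) and 708 to 776 in Unstimulated (2 of 8). Of its 8 genes 2 passed, Mmp9 (857 to 874 in Estradiol and 269 to 301 in Unstimulated) and S100a8 (302 to 326 in Estradiol and 77.5 to 116 in Unstimulated), and 4 of 8 had a positive change. The monocyte list summed to 2286 to 2586 in Estradiol and 1636 to 1699 in Unstimulated. Of its 3 measured genes only Cx3cr1 passed and had a positive change (2110 to 2419 in Estradiol and 1428 to 1517 in Unstimulated). The changes of the others were negative, with Ccr2 at 133 to 152 in Estradiol and 142 to 174 in Unstimulated. Fn1 had 21.2 to 34.3 in Estradiol and 35.8 to 40.4 in Unstimulated. The alveolar macrophage list summed lower in Estradiol (12776 to 13631) than in Unstimulated (15842 to 16110), with 1 gene called higher and 2 lower of 8. The B cell list also summed lower (472 to 501 against 651 to 773, 1 of 7 called lower). The dendritic cell list summed higher (278 to 285 against 189 to 205, 1 of 5 called higher). With estradiol 11.4% of all genes were called. The part of these lists in the estradiol and pregnancy results was not tested.

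Estradiol changed the surface receptors in both directions and lowered the endosomal receptor Tlr7. With limma on log2(intensity + 1), 4 of the 10 genes passed an adjusted p of 0.05, against 11.4% of all genes. Tlr2 and Cd14 rose (background 6.75% higher) and Tlr1 and Tlr7 fell (background 4.66% lower). The median log2 change of the 10 genes was -0.05, against 0.02 over all genes. Groups did not overlap for 5 of the 10, against 34.8% of all genes, with 2 higher (background 19.9%) and 3 lower (background 14.9%). Over all genes the calls were 836 higher and 578 lower, but 620 higher and 707 lower when arrays were set to a common median of genes. Among the surface genes 2 rose, 1 fell and 3 did not pass, while among the endosomal receptors 1 fell and 2 did not pass.

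Tlr2, the shared partner in lipoprotein recognition, had intensities of 6342, 7030 and 6614 in Estradiol and 5311, 4908 and 4980 in Unstimulated. All Estradiol arrays were above all Unstimulated arrays. Its log2 change was 0.39 ± 0.06 (SE, n = 3 each), a 1.31-fold rise (limma adjusted p = 0.0087). The call remained when any 1 array was left out and under each other setting tried.

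The lipoprotein partner Tlr1 moved the opposite way. It had 1199, 1320 and 1204 in Estradiol and 1658, 1617 and 1632 in Unstimulated, without overlap. This gave a log2 change of -0.40 ± 0.06, which is 1.32-fold lower (limma adjusted p = 0.0059). In a joint fit of all 12 arrays, where the spread of the lavage arrays entered, the adjusted p was 0.481.

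Tlr6, the other partner of TLR2, had 666, 862 and 731 in Estradiol and 941, 978 and 958 in Unstimulated. The groups did not overlap, and the highest Estradiol value was that of replicate 2, the array with the larger 3' to 5' difference. The log2 change of -0.36 ± 0.09 did not pass (limma adjusted p = 0.0568). Without Estradiol replicate 2 it was -0.46 ± 0.06 (adjusted p = 0.0074), and Tlr6 also passed with the filter on dim genes (0.0325), the intensity-dependent prior (0.0293), array weights (0.0012), a pseudocount of 16 (0.0428), a common median of genes (0.0211) and the joint fit (0.0255).

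Cd14, the lipopolysaccharide co-receptor, had 15643, 16081 and 16400 in Estradiol and 13449, 14110 and 14223 in Unstimulated. The arrays of the groups did not overlap. Cd14 had a log2 change of 0.20 ± 0.05, a 1.15-fold rise (limma adjusted p = 0.0435). The call ended without any 1 of the 6 arrays (adjusted p from 0.0557 to 0.157), and with quantile normalization (0.0574), either common median (0.0543 and 0.139) and all probe sets tested (0.0553).

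Tlr4, the lipopolysaccharide receptor itself, did not pass. It had 4151, 3817 and 3857 in Estradiol and 3656, 3667 and 3827 in Unstimulated, and the groups overlapped. The log2 difference was 0.08 ± 0.05 (limma adjusted p = 0.372). Its other probe set had -0.02 ± 0.06 (adjusted p = 0.861 over probe sets).

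Tlr5, the flagellin receptor, was dim in the cell line, below the 40th percentile on all 6 arrays. It had 34.0, 34.7 and 37.0 in Estradiol and 36.3, 38.2 and 41.2 in Unstimulated, with overlap. The log2 change was -0.13 ± 0.06 (limma adjusted p = 0.265).

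The endosomal receptor Tlr7, which senses single-stranded RNA, fell. Its brightest probe set, used in the gene-level test, had 3170, 3076 and 3145 in Estradiol and 3859, 3749 and 3969 in Unstimulated, without overlap. The log2 change was -0.30 ± 0.05, which is 1.23-fold lower (limma adjusted p = 0.0097). Without Unstimulated replicate 3 the adjusted p was 0.0522.

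**Figure D1:**
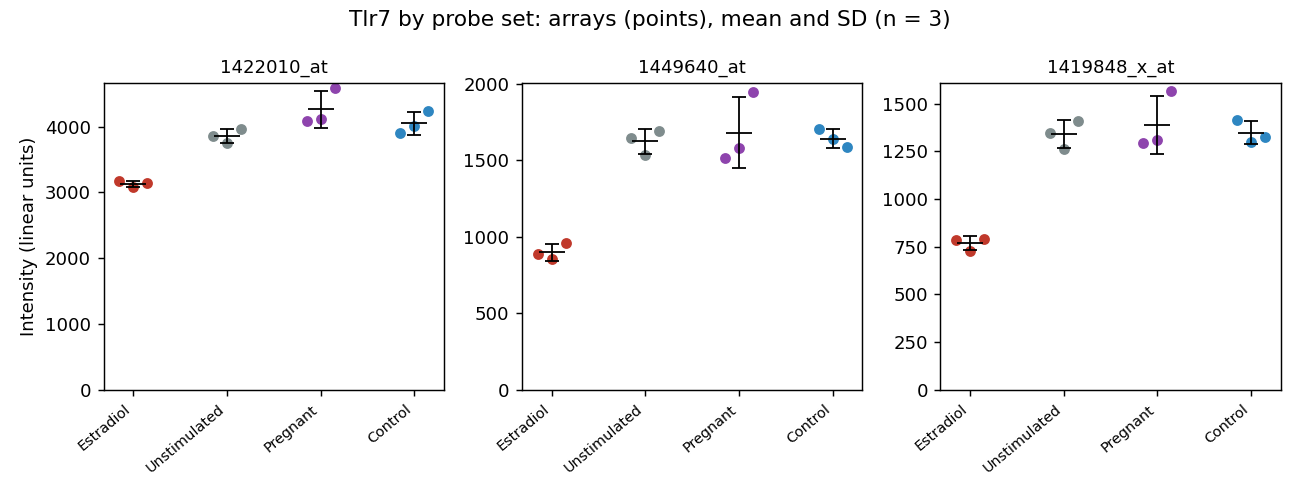
Intensity (linear units) of the 3 Tlr7 probe sets by group, with arrays as points and the mean and SD as bars (n = 3). Panels run from the brightest to the dimmest probe set. On each the Estradiol arrays lie below the Unstimulated ones, with log2 changes of -0.30, -0.85 and -0.80 from left to right.

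The other probe sets of Tlr7 showed a larger difference in the same direction. The second brightest had 885, 852 and 958 in Estradiol and 1648, 1534 and 1695 in Unstimulated, a log2 change of -0.85 ± 0.07 (limma adjusted p = 0.00088 over 20380 probe sets). The dimmest had 787, 725 and 789 in Estradiol and 1348, 1264 and 1409 in Unstimulated, with -0.80 ± 0.06 (adjusted p = 0.00089). These probe sets both carry the same source accession in the annotation, so they are not independent readings. The direction was thus shared by all 3 probe sets, but the size depended on the probe set.

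The double-stranded RNA receptor Tlr3 had 1777, 1597 and 1652 in Estradiol and 1687, 1530 and 1701 in Unstimulated, with overlap. The log2 change was 0.03 ± 0.07 (limma adjusted p = 0.806), and that of its dimmer probe set -0.14 ± 0.08 (adjusted p = 0.312 over probe sets). Tlr9, the receptor for unmethylated CpG DNA, was dim on all 12 arrays. It had 52.5, 63.5 and 59.4 in Estradiol and 73.4, 68.2 and 62.0 in Unstimulated, with a log2 change of -0.21 ± 0.09 (adjusted p = 0.191). The adaptor Myd88 had 2570, 2857 and 2621 in Estradiol and 2422, 2621 and 2480 in Unstimulated, and its log2 change of 0.10 ± 0.06 did not pass (adjusted p = 0.364).

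**Figure D2:**
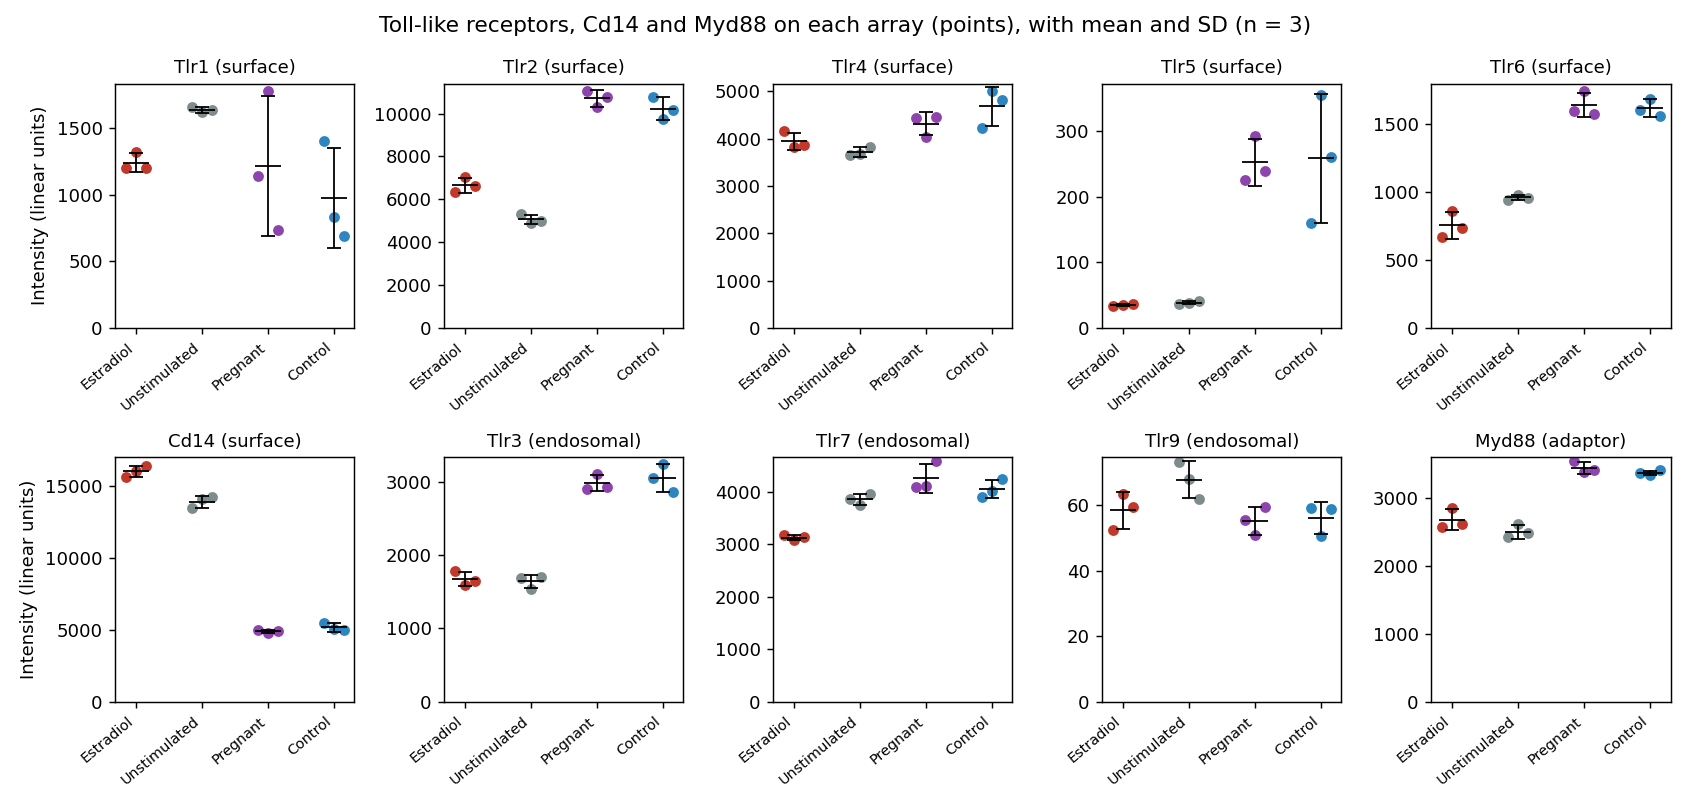
Intensity (linear units) of the 10 genes on each of the 12 arrays by group, 1 panel a gene, with points for arrays and bars for the mean and SD (n = 3). Pregnant and Control arrays overlap in every panel, and lavage arrays lie above cell-line arrays for Tlr2, Tlr3, Tlr5, Tlr6 and Myd88 and below them for Cd14.

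Other genes of the pathway also moved both ways with estradiol. Of 47 listed genes, 33 were measured, and 4 of these rose (background 6.75%), 3 fell (background 4.66%) and 26 did not pass. The median log2 change was 0.02, as over all genes. Beside the receptors, 2 of 5 co-receptors fell. Cd180, a receptor-like protein of B cells and macrophages that pairs with MD-1, had 1379, 1360 and 1367 in Estradiol and 1997, 2363 and 2237 in Unstimulated (log2 -0.68 ± 0.07, limma adjusted p = 0.0015). Cd36, a scavenger receptor that assists TLR2 with TLR6, had 1378, 1004 and 1317 in Estradiol and 1674, 1826 and 1753 in Unstimulated (-0.52 ± 0.12, adjusted p = 0.0377). Ly96, the TLR4 partner, had a log2 change of 0.01 ± 0.06 and did not pass (adjusted p = 0.945).

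Downstream of the receptors, 2 of 10 kinases and ligases rose, against 6.75% of all genes. Ikbke, a kinase that activates interferon regulatory factors, had 720, 990 and 707 in Estradiol and 433, 383 and 383 in Unstimulated (log2 0.99 ± 0.14, limma adjusted p = 0.0053). Map3k7, the kinase TAK1, rose by 0.32 ± 0.06 (adjusted p = 0.0144), and Zc3h12a, a ribonuclease that degrades inflammatory mRNAs, by 0.36 ± 0.07 (0.0179). The chaperone Hsp90b1 rose by 0.20 ± 0.05 (0.0359). Irf7, a transcription factor for interferon genes after endosomal signalling, had 175, 206 and 168 in Estradiol and 259, 307 and 247 in Unstimulated, and fell by 0.56 on the log2 scale (0.0198). Neither of the 2 measured adaptors passed, and Unc93b1, the chaperone of endosomal receptors, had -0.01 ± 0.06 (0.965). The calls of Cd180 and Ikbke remained without any 1 array, while those of the other named genes each ended without at least 1 array, with adjusted p values of up to 0.131 for Cd36 and Hsp90b1. The lowest Cd36 value and the highest Ikbke value were both on Estradiol replicate 2, the array with the larger 3' to 5' difference. Without that array the log2 changes were smaller, at -0.38 ± 0.06 for Cd36 and 0.84 ± 0.07 for Ikbke. In the joint fit of all 12 arrays the adjusted p was 0.0553 for Cd180, 0.0541 for Irf7 and 0.0600 for Hsp90b1. With the mean of probe sets it was 0.0830 for Hsp90b1 and 0.0547 for Cd36, and with a common median of genes 0.0890 for Hsp90b1.

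No member passed the threshold between Pregnant and Control lavage cells. Of the 10 genes 0 were called by limma, against 0% of all genes, and 0 had an unadjusted p under 0.05, against 1163 of 12393 genes. Groups overlapped for all 10, while they did not overlap for 15.7% of all genes (10.7% higher and 4.99% lower). The median log2 change of the 10 was 0.03, as over all genes. For Tlr2, Tlr3, Tlr4, Tlr6, Tlr7, Tlr9, Cd14 and Myd88 the 95% intervals of the fold change lay between 0.799 and 1.19. They were wider for Tlr1 (0.656 to 2.29) and Tlr5 (0.641 to 1.63), so the data allow larger changes of these genes. All these intervals are those of the brightest probe set of each gene. The dimmer probe sets of Tlr4 and Tlr3 had log2 changes of -0.28 ± 0.15 and -0.11 ± 0.12 (limma adjusted p = 0.592 and 0.778 over probe sets). They allow larger falls of Tlr4 and Tlr3 than the brightest probe sets do. The dimmer Tlr4 probe set had 885, 662 and 975 in Pregnant and 1078, 936 and 1008 in Control. Its lowest value was on Pregnant replicate 2, the lavage array with the largest 3' to 5' difference, whose part was not tested.

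**Figure D3:**
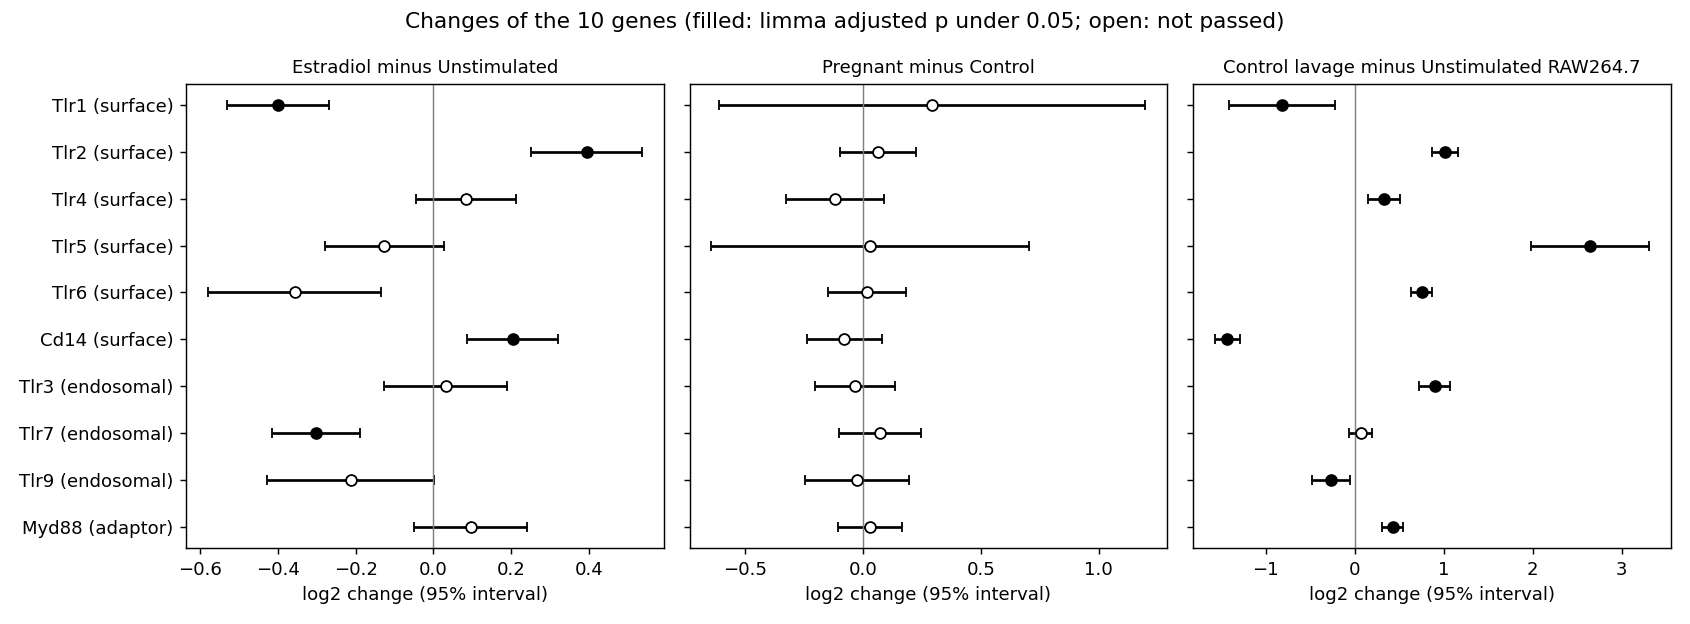
Log2 change of each of the 10 genes with its 95% interval from limma, in panels for Estradiol minus Unstimulated, Pregnant minus Control and Control lavage minus Unstimulated RAW264.7 (horizontal axes differ in range). Filled points passed an adjusted p of 0.05, which holds for 4 genes, 0 genes and 9 genes in these panels.

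Tlr1 varied most among the lavage arrays. It had 1139, 1774 and 733 in Pregnant and 1401, 833 and 687 in Control. The highest arrays were Pregnant replicate 2, Control replicate 1 and Pregnant replicate 1, so the spread lay within groups (log2 change 0.29 ± 0.38, limma adjusted p = 0.831). The summed epithelial markers were 21661, 26622 and 15702 in Pregnant and 23362, 13805 and 18162 in Control. These sums were highest on the same 3 arrays, but not every marker of the list followed. Cdh1 was lowest on Pregnant replicate 2. Epcam had 3088, 2129 and 3146 in Pregnant and 1578, 1450 and 1453 in Control. The neutrophil sums, at 8080, 10542 and 6779 in Pregnant and 20167, 7701 and 7358 in Control, had the same 3 highest arrays, as had S100a9 (2612, 4052 and 1277 in Pregnant and 12202, 2434 and 1821 in Control). Other neutrophil markers did not follow this order, since Mmp8 was lowest on Pregnant replicate 2 and Csf3r highest on the 3 Control arrays. S100a8 had 3192, 4360 and 3258 in Pregnant and 4980, 2486 and 2676 in Control, with Pregnant replicate 3 above Pregnant replicate 1. These 3 arrays were picked from the Tlr1 values, and in the neutrophil sums Pregnant replicate 1 (8080) lay close to Control replicate 2 (7701). Of all the marker lists, only the epithelial and neutrophil sums had these 3 highest arrays. The monocyte sums, for example, were 2541, 2020 and 1992 in Pregnant and 4486, 4173 and 3413 in Control. The dendritic cell sums were 609, 973 and 475 in Pregnant and 1674, 870 and 788 in Control. They were highest on Control replicate 1 and Pregnant replicate 2, which were also among the highest arrays of Tlr1. The part of these cells in the Tlr1 values was not tested, and in bulk RNA fewer cells of a type and less RNA per cell cannot be told apart.

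The surface receptors Tlr2 and Tlr4 were steadier on their brightest probe sets. Tlr2 had 11061, 10305 and 10753 in Pregnant and 10785, 9745 and 10166 in Control (log2 change 0.07 ± 0.07, limma adjusted p = 0.776). Tlr4 had 4443, 4038 and 4465 in Pregnant and 4224, 4998 and 4825 in Control (-0.12 ± 0.09, adjusted p = 0.696). Both genes overlapped between the groups. Tlr5 had 225, 293 and 240 in Pregnant and 160, 356 and 261 in Control, where the spread within Control was wider than the difference between the means (0.03 ± 0.28, adjusted p = 0.981). Tlr6 had 1597, 1741 and 1574 in Pregnant and 1604, 1684 and 1557 in Control, and Cd14 had 4976, 4770 and 4934 in Pregnant and 5497, 5034 and 4971 in Control. Their log2 changes were 0.02 ± 0.07 and -0.08 ± 0.07 (adjusted p = 0.951 and 0.729).

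Among the endosomal receptors Tlr7 had 4088, 4120 and 4583 in Pregnant and 3903, 4008 and 4240 in Control (log2 change 0.07 ± 0.07, limma adjusted p = 0.774). Tlr3 had 2903, 3104 and 2934 in Pregnant and 3053, 3246 and 2863 in Control (-0.03 ± 0.07, adjusted p = 0.904). Tlr9 stayed dim, at 55.6, 50.9 and 59.4 in Pregnant and 59.3, 50.7 and 58.8 in Control (-0.02 ± 0.09, adjusted p = 0.956). All 3 endosomal receptors therefore overlapped between Pregnant and Control. Myd88 had 3546, 3382 and 3419 in Pregnant and 3368, 3344 and 3411 in Control (0.03 ± 0.06, adjusted p = 0.884).

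Of the 33 measured pathway genes 0 passed in pregnancy by limma, with 1 at an unadjusted p under 0.05. That gene was Slc15a4, a lysosomal transporter needed for endosomal receptor signalling, at 3006, 2337 and 2815 in Pregnant and 3269, 3133 and 3561 in Control (log2 -0.29 ± 0.11, adjusted p = 0.493). Next by p were the signalling genes Tab3 (0.18 ± 0.08), Irf5 (-0.19 ± 0.09) and Traf6 (-0.17 ± 0.08), with adjusted p = 0.552, 0.566 and 0.585.

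The estradiol and pregnancy changes were set against each other in a fit of all 12 arrays. Their difference passed for 1 of the 10 genes, against 4.43% of all genes (2.21% higher and 2.22% lower). This was Tlr7, whose pregnancy change exceeded its estradiol change by 0.37 ± 0.08 on the log2 scale (limma adjusted p = 0.0307). The differences for Tlr2 (-0.33 ± 0.09), Cd14 (-0.28 ± 0.08) and Tlr6 (0.38 ± 0.12) did not pass (adjusted p = 0.0597, 0.0653 and 0.115). Tlr2 and Cd14 passed with the filter on dim genes, the intensity-dependent prior, array weights and a pseudocount of 16 (0.0143 to 0.0422), and Tlr6 with array weights (0.0116) and without Estradiol replicate 2 (0.0195). For the wide-spread Tlr1 it was 0.69 ± 0.42 (adjusted p = 0.41). Among the 33 pathway genes 0 passed by limma, with 7 at an unadjusted p under 0.05, against 2394 of all 12393 genes. The smallest p values were those of Traf6 (-0.34 ± 0.09), Irf7 (0.81 ± 0.23), Tab2 (-0.22 ± 0.08) and Map3k7 (-0.24 ± 0.08), with adjusted p = 0.0686, 0.0759, 0.143 and 0.151. All 4 passed with array weights (0.0086 to 0.0367), Traf6 also with the filter on dim genes (0.0401) and without Pregnant replicate 1 (0.0200), and Irf7 without Pregnant replicate 3 (0.0340). The call of Tlr7 ended without any 1 of the Unstimulated arrays, Estradiol replicates 1 or 3, or Control replicates 1 or 2 (adjusted p from 0.0569 to 0.0846), and with a common median of genes (0.0617).

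Most of the genes differed between lavage cells and the cell line. This comparison of Control lavage cells with Unstimulated RAW264.7 cells shares its arrays with the 2 comparisons above. It also differs in culture and origin, and possibly in sex and strain, which cannot be told apart from source. Of the 10 genes 6 were higher in lavage cells (background 27.9%) and 3 lower (background 34%), against 61.9% of all genes called in either direction. The same 9 genes had groups that did not overlap, against 69.9% of all genes (30.8% higher and 39.1% lower). The median log2 difference of the 10 was 0.38, against -0.07 over all genes. The epithelial markers, at 13805 to 23362 in Control, summed to 267 to 320 in Unstimulated cells with 0 of 7 above the 40th percentile, and their part in these differences was not tested.

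Tlr5 showed the largest difference of the 10, at 160, 356 and 261 in Control lavage cells and 36.3, 38.2 and 41.2 in Unstimulated cells (log2 2.64 ± 0.27, 6.24-fold, limma adjusted p = 0.0002). It lay above the 40th percentile on 2 of the 3 Control arrays and on none of the Unstimulated arrays, so its cell-line level is near the dim end of the scale. Tlr2 was 2.02-fold higher in Control lavage cells, with 10785, 9745 and 10166 against 5311, 4908 and 4980 in Unstimulated cells (adjusted p = 1.4e-05). Tlr6 was 1.68-fold higher (1604, 1684 and 1557 against 941, 978 and 958, adjusted p = 2.4e-05). Tlr4 was 1.26-fold higher (4224, 4998 and 4825 against 3656, 3667 and 3827, adjusted p = 0.0077). The partners of these receptors did not all follow, since Cd14 and Tlr1 were lower in lavage cells.

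Cd14 was 2.70-fold lower in Control lavage cells, at 5497, 5034 and 4971, than in Unstimulated cells, at 13449, 14110 and 14223 (log2 -1.43 ± 0.06, limma adjusted p = 2.4e-06). Tlr1 was 1.76-fold lower (1401, 833 and 687 against 1658, 1617 and 1632, adjusted p = 0.0273). Its adjusted p lay between 0.0605 and 0.0807 when any 1 Unstimulated array, Control replicate 2 or Control replicate 3 was left out.

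Of the endosomal receptors Tlr3 was 1.86-fold higher in Control lavage cells, with 3053, 3246 and 2863 against 1687, 1530 and 1701 in Unstimulated cells (limma adjusted p = 5.1e-05). Its dimmer probe set also was higher (log2 0.76 ± 0.08). Tlr7 did not pass, with 3903, 4008 and 4240 in Control and 3859, 3749 and 3969 in Unstimulated (0.07 ± 0.05, adjusted p = 0.291), and its other probe sets had 0.02 ± 0.06 and 0.01 ± 0.06. The 95% interval of Tlr7 is drawn in the plot of changes. The dim Tlr9 was lower (-0.27 ± 0.09, adjusted p = 0.0386). Its log2 difference stayed between -0.19 and -0.30 without Unstimulated replicate 1 or 2 or Control replicate 2 or 3, but the call ended (0.0529 to 0.117). The call also ended with the common median (0.0544), the intensity-dependent prior (0.0600) and array weights (0.0555). Myd88 was 1.35-fold higher (3368, 3344 and 3411 against 2422, 2621 and 2480, adjusted p = 0.00034).

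Over the 4 groups, the lavage and cell-line arrays of Tlr2, Tlr3, Tlr5, Tlr6, Cd14 and Myd88 formed separate ranges, with Pregnant and Control overlapping in each. From low to high mean, Tlr2 ran Unstimulated, Estradiol, Control and Pregnant, and Cd14 ran Pregnant, Control, Unstimulated and Estradiol. For both, the only neighbours in that order whose arrays overlapped were the lavage groups. Tlr6 ran Estradiol, Unstimulated, Control and Pregnant with the same pattern of overlap. For Tlr7 only the Estradiol group stood apart, below Unstimulated, Control and Pregnant. Neighbouring groups of Tlr4 and Tlr9 overlapped throughout.

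In the source comparison 18 of the 33 pathway genes were higher (background 27.9%) and 7 lower (background 34%) in lavage cells, with a median log2 difference of 0.31 against -0.07 over all genes. Tlr8, the remaining endosomal receptor measured, had 1584, 1551 and 1516 in Control and 35.5, 30.3 and 28.2 in Unstimulated (log2 5.59 ± 0.09, 48.2-fold, limma adjusted p = 5.0e-08). It was below the 40th percentile on all Unstimulated arrays, and with a pseudocount of 16 the log2 difference was 5.05. Unlike Tlr7, whose groups overlapped, Tlr8 had no overlap between these sources.

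**Figure D4:**
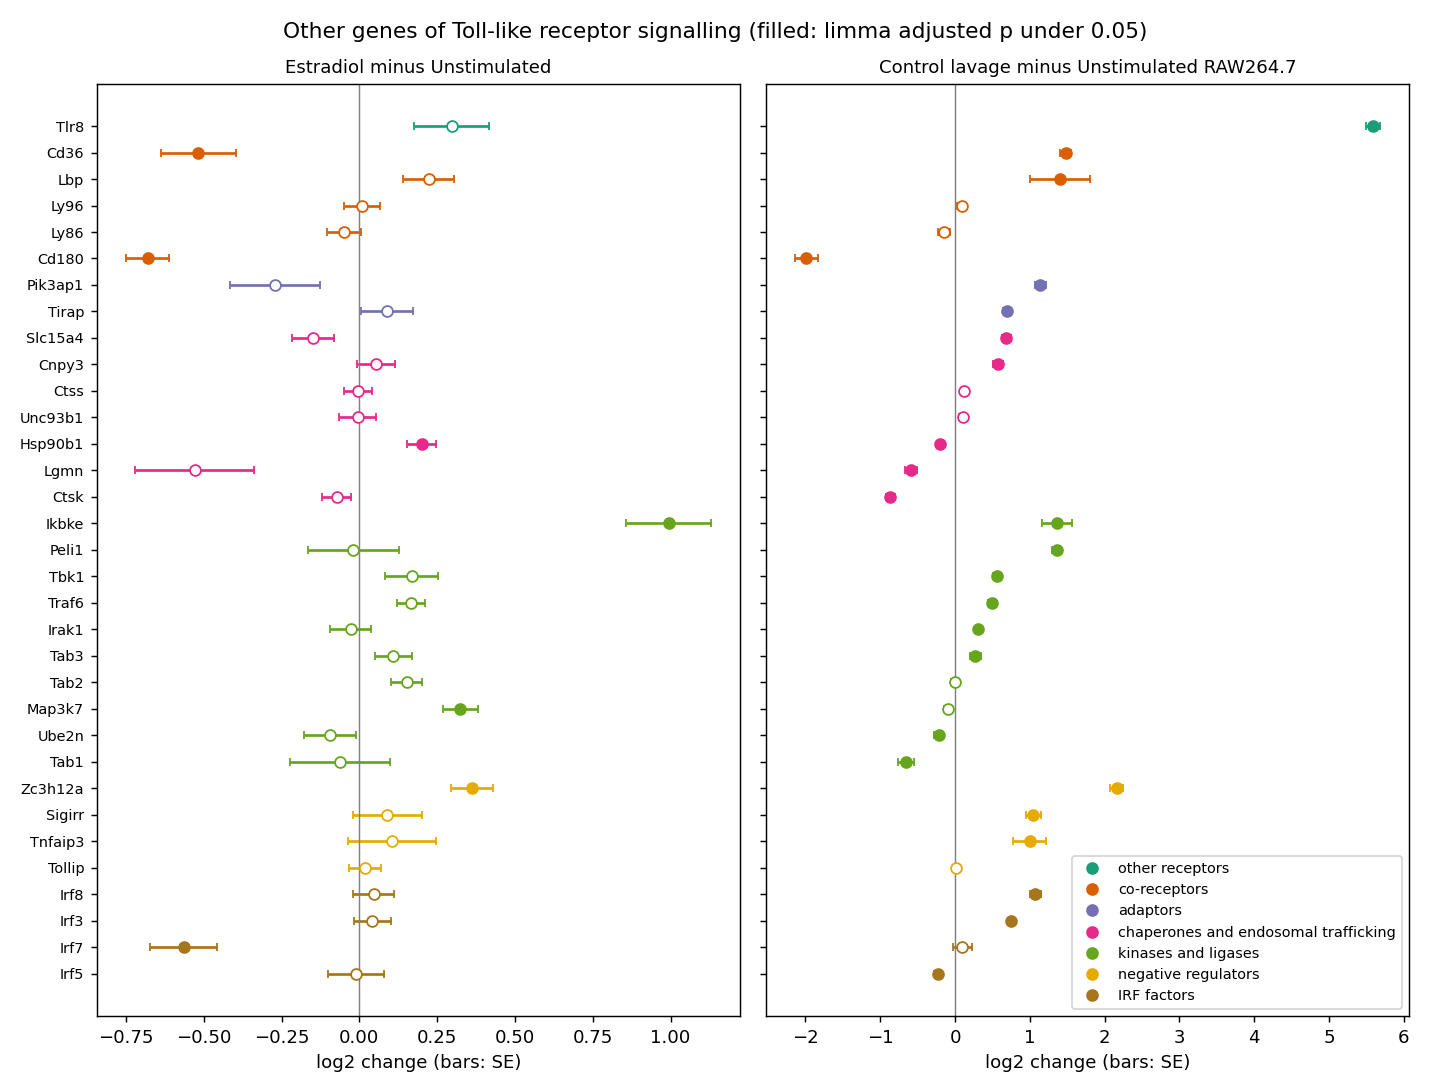
Log2 change of the 33 measured pathway genes, coloured by role, for Estradiol minus Unstimulated and for Control lavage minus Unstimulated RAW264.7, with SE bars. Filled points passed an adjusted p of 0.05, which 7 genes did with estradiol and 25 between sources, and Tlr8 lies farthest from 0 between sources, at 5.59.

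Co-receptors split. Cd36 was 2.79-fold higher in Control lavage cells and Cd180 lower by a log2 difference of -1.99 ± 0.15 (limma adjusted p = 5.5e-06 and 4.9e-05). Lbp, the lipopolysaccharide-binding protein, was dim and higher by 1.40 ± 0.40 (adjusted p = 0.0206, and 0.057 and 0.0627 without Unstimulated replicates 1 and 3). Ly96 did not pass (0.09 ± 0.06, adjusted p = 0.221).

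Both measured adaptors were higher, Tirap, which brings MyD88 to surface receptors, by 0.69 ± 0.05 and Pik3ap1 by 1.14 ± 0.07 (limma adjusted p = 3.1e-05 and 2.0e-05). The largest difference among negative regulators was that of Zc3h12a, at 1224, 1358 and 1503 in Control and 325, 284 and 301 in Unstimulated (2.16 ± 0.09, adjusted p = 2.8e-06). Sigirr, an inhibitory receptor, was higher by 1.05 ± 0.10, and Tnfaip3, an enzyme that edits ubiquitin, by 1.00 ± 0.22. Their probe sets were above the 40th percentile on 3 and 1 of the 6 arrays. Of 10 kinases and ligases 6 were higher and 2 lower, against 61.9% of all genes called, with the smallest p for Peli1 (1.36 ± 0.07), Tbk1 (0.56 ± 0.05) and Traf6 (0.50 ± 0.05). Traf6 depended on the probe set, since the mean of its probe sets gave -0.27 ± 0.07 (adjusted p = 0.0122). Irf8 (1.08 ± 0.08) and Irf3 (0.75 ± 0.05) were higher and Irf5 lower (-0.22 ± 0.06), although the call of Irf5 ended in the joint fit (adjusted p = 0.0531). Among chaperones and trafficking genes Slc15a4 (0.68 ± 0.06) and Cnpy3 (0.58 ± 0.06) were higher and the protease Ctsk lower (-0.87 ± 0.06), while Unc93b1 did not pass (0.11 ± 0.05, adjusted p = 0.0936).

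For each of the 10 genes the 2 genes with the most similar log2 profile over the 12 arrays were taken from genes with a mean of at least 7. These correlations mostly follow the split between sources and are given as a description. Tlr2 was most like Cdk2ap2 (Pearson r = 0.994) and Sqor (0.993), Tlr6 most like Lpcat3 (0.993) and Pirb (0.992), and Tlr3 most like Pbx2 (0.997) and Stat5a (0.995). Cd14 was most like Tnfsf9 (0.998) and Mboat1 (0.997). Tlr5 was most like Trim46 (0.992) and Tef (0.992), and Myd88 most like Phf1 (0.987) and Sptlc2 (0.987). Genes without a clear split had lower values, with Tlr4 most like Hnrnph3 (0.96) and Cramp1l (0.957), and Tlr7 most like Spsb2 (0.955) and Rpp21 (0.947). Tlr9 was most like Ndufs7 (0.935) and Ndufb10 (0.888), and Tlr1 most like Efcab2 (0.914) and Prxl2a (0.897).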

How the data were processed

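The authors deposited 1 linear intensity per probe set and array, made with RMA (version not stated) per the submitters' processing notes. Values ran from 6.51 to 28506, so log2(intensity + 1) was used. RMA normally gives log2 values, and how these became linear is not given in the sources used here. Of 22690 probe sets, 20380 had 1 gene symbol, 691 several and 1555 none, and 64 were controls. Symbols came from the platform annotation, and 20351 of the single-symbol probe sets matched RefSeq gene records by Entrez ID. A gene was represented by its probe set with the highest mean (3 member genes had more than 1).

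Groups came from the labels. Replicates were numbered in deposit order and never paired. Comparisons were fitted in limma 3.58.1 (R 4.3.3, data.table version 1.17.8), each on its 6 arrays and the difference of changes on all 12. Tests were two-sided with Benjamini-Hochberg adjustment over 12393 genes. Figures were drawn with matplotlib 3.10.9 and numpy 2.4.6, and promoter motifs searched with pandas 2.3.3, both in Python 3.11.15. Other settings covered normalization, the dim-gene filter, probe set choice, the variance prior, array weights, the pseudocount, the joint fit and leaving out each array. The fits were tested on simulated data. There are no detection calls, so dim means below the array's 40th percentile, and the number of arrays limits precision.

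Members, pathway genes and tests were chosen with earlier results of these data known. Named were all members, called pathway genes (up to 3 a role by p, or the 4 smallest p where none passed) and 2 genes of like profile. Positions of probe sets were not analysed here.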

Additional observations from a re-analysis of the deposited data

Results flagged for a closer look

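The estradiol and pregnancy changes of Tlr7 differed by a tested interaction of 0.37 ± 0.08 (log2, limma adjusted p = 0.0307), with Tlr7 lower in Estradiol than in Unstimulated cells and overlapping between Pregnant and Control cells. The same difference was 0.88 ± 0.13 and 0.84 ± 0.11 on its other probe sets, which are not independent readings. The gene-level call ended without 1 of several single arrays (adjusted p from 0.0569 to 0.0846) and with a common median of genes (0.0617). Among the 10 genes the Tlr7 difference was the only such difference past the threshold. Single arrays within groups of 3 were not screened as outliers.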

How the results depend on the processing

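With estradiol 4 of the 10 genes passed, 3 to 5 under other settings and 2 to 4 when 1 array was left out. The filter on dim genes kept only 8 members for estradiol and between sources, and 9 for pregnancy and the difference of changes. Between sources it removed Tlr5 and Tlr9, which were called without it, so that count fell without their being tested. In pregnancy the count was 0 throughout, and between sources 9, or 7 to 9. For the difference of changes it was 1, but 3 with the filter on dim genes, 3 with the intensity-dependent prior, 4 with array weights, 3 with a pseudocount of 16, 0 with a common median of genes (an alternative chosen after seeing the data), and 0 to 2 without 1 array. The added genes were Tlr2 and Cd14 in the 4 settings with higher counts, and Tlr6 under array weights and without Estradiol replicate 2. The cause was not tested.

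Over all genes, estradiol calls numbered 1414, but 4010 with array weights, 824 when Estradiol replicate 3 was left out, and 681, 637 and 684 when Unstimulated replicate 1, 2 or 3 was. Calls for the difference of changes numbered 549, but 1394 with array weights and 263 to 573 without 1 array. Pregnancy calls numbered 0, but 1 with the filter, 18 in the joint fit and 2 without Control replicate 1.

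Signs turned mainly for changes near 0. For estradiol, Tlr3 gave -0.055 (mean of probe sets), -0.0067 (common median of genes) and -0.017 to 0.066 without 1 array. For pregnancy, the common median gave 0.0061 for Tlr9, array weights -0.10 for Tlr5, and the common median of genes -0.021 for Tlr5, -0.034 for Tlr6 and -0.022 for Myd88. Without 1 array, pregnancy changes spanned -0.024 to 0.61 for Tlr1, -0.080 to 0.011 for Tlr3, -0.28 to 0.30 for Tlr5, -0.026 to 0.049 for Tlr6 and -0.10 to 0.033 for Tlr9. Between sources, the mean of probe sets gave -0.27 for Traf6. For the difference of changes Tlr5 gave -0.033 with array weights and -0.15 to 0.42 without 1 array. No paired analysis was possible because the labels carry no shared replicate numbers. Tlr9 on all arrays and Tlr5 in the cell line were dim, which limits their changes.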

Other observations

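The kinase gene Ikbke, picked out after its values were seen, had its 3 highest lavage values on the same arrays as Tlr1. It had 1182, 1510 and 720 in Pregnant and 1421, 926 and 823 in Control, with the higher values on Pregnant replicates 1 and 2 and Control replicate 1. Tlr8, also singled out after its values were seen, had 1689, 892 and 1415 in Pregnant and 1584, 1551 and 1516 in Control, so that Pregnant replicate 2 was the lowest of the 6 lavage arrays. That array also had the highest 3' to 5' differences among them (actin 0.39 against 0.26 to 0.35, transferrin receptor 3.86 against 2.83 to 3.47, log2) and an intensity of 2877 for the red cell marker Alas2, against 192 to 837 on the others. Their part in the Tlr8 value was not tested.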
